A study of Mus musculus with 2 samples.

Results

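Transcript levels of 10 C-type lectin receptor genes were compared in dendritic cells (DCs) that had been cultured with IL-27 or with vehicle. The genes were the 7 lectins Clec4a1, Clec4a2, Clec4a3, Clec4a4, Clec4n, Clec4d and Clec4e of the DCIR and Dectin-2 cluster, Clec7a and Clec12a of the Dectin-1 cluster, and Cd209a. They were found by gene symbol among the 19935 genes that had at least 1 probe set of their own, and all 10 were measured. The cells were primary splenic DCs, sorted by flow cytometry from wild type C57BL/6 mice aged 8 weeks, and both groups share that strain, genotype and age. One group, IL-27, was treated with that cytokine of the IL-12 family, and the other, vehicle, was kept in medium, both for a time the labels give as "ON". Each group was read on 1 array, so no difference below has a replicate check and no test, SD or standard error is given. The labels do not give the number of mice or cultures behind each array, nor the dose of IL-27.

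C-type lectin receptors are membrane proteins of myeloid cells that bind sugars, glycolipids or self ligands through a lectin-like domain. Dectin-1, Dectin-2, Mincle and MCL are activating: they reach the kinase Syk through a tail motif of their own or through the Fc receptor gamma chain, and from there the adaptor Card9 and NF-kB. The ITIM-bearing receptors DCIR, DCIR2 and MICL instead recruit the phosphatases SHP-1 and SHP-2 and restrain activation. In the mouse spleen several of these genes are used to tell DC classes apart, with Clec4a4 and Cd209a typical of type 2 conventional DCs.

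In RefSeq's mouse assembly GRCm38.p6, the 7 genes from Clec4a1 to Clec4e lie in a row on chromosome 6, with the 2 related DCAR genes Clec4b1 and Clec4b2 as the other protein-coding genes between them. Clec12a and Clec7a lie in a separate lectin cluster on the same chromosome, and Cd209a lies on chromosome 8. The submitters' processing notes name the older build mm8, so only RefSeq gene order, and no position in bases, is set beside the array values. RefSeq's promoter table held the bases before the start of 8 of the 10 genes, in 10 windows, and had no entry for Clec4a4 and Clec4n. The 4 windows below, each of 250 bases, are shown because they hold what the lectin promoters share or the motifs found in genes that differed. In the first pair the capitals mark the most similar stretch between different lectin genes, and in the second pair they mark a motif.
Clec4a1, chr6:122921598-122921847, plus strand: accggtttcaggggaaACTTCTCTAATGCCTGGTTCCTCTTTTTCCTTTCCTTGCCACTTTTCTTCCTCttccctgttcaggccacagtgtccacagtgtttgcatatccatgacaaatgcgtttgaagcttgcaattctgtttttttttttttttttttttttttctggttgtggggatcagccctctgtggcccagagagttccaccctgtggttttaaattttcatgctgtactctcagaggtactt
Clec4a3, chr6:122952394-122952643, plus strand: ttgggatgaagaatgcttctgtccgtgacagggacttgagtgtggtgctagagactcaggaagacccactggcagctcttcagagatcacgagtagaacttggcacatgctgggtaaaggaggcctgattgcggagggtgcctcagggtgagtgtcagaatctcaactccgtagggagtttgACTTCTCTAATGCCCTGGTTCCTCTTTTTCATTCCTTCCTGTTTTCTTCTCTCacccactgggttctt
Clec4a2, chr6:123122440-123122689, plus strand: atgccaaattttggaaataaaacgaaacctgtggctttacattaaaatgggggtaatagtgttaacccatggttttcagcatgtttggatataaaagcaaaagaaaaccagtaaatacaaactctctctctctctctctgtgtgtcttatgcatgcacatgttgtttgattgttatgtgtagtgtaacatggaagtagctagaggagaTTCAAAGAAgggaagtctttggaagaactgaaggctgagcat
Clec4e, chr6:123289872-123290121, minus strand: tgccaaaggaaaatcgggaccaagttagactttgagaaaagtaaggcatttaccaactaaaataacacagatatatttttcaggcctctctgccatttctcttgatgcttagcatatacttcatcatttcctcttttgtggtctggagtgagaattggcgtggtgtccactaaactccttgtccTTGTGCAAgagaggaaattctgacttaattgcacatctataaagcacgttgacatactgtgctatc

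Clec4a1 and Clec4a3, neighbours in the cluster, shared a stretch with 48 identical bases in 55 aligned columns. It lay 234 to 182 bases before the start in Clec4a1 and 68 to 16 bases before the second annotated start in Clec4a3. Over the 43 pairs of windows from different lectin genes, this pair scored 67 by local alignment and the next pair, Cd209a with Clec4a2, scored 24. The 5 motifs searched on both strands were TTCNNNGAA, the form bound by STAT factors, GAGGAAGT of the myeloid factor PU.1, TTGCNNAA of C/EBP factors, and an interferon response element and an NF-kB site of 10 letters each. The Clec4a2 window held TTCAAAGAA, of the STAT form, 42 to 34 bases before its start, and 7.02% of all 32851 promoter windows held that form. The Clec4e window held TTGTGCAA, of the C/EBP form, 66 to 59 bases before its start, and the Clec12a window TTGCGCAA, 140 to 133 bases before its start. The C/EBP form was in 9.56% of all windows. None of the 10 windows held the interferon response, PU.1 or NF-kB form, found in 2.98%, 2.44% and 0.356% of all windows. These matches describe letters in a short window and say nothing of binding.

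Most of the lectins were lower on the IL-27 array, above all Cd209a and Clec4a3, and the 2 with a positive difference, Clec4d and Clec4e, lay on the vehicle array below the limit used here for signal. That limit was the 95th percentile of 1027 olfactory receptor genes, which DCs are not expected to use, and it lay at an intensity of 129 on the IL-27 array and 77.3 on the vehicle array. A gene was counted as lower or higher by a rule of size: at least 2-fold between the arrays, with the brighter array at or above an intensity of 96.2, the median of all probe set values. All 10 lectins met the level minimum. Of them, 6 were lower (Clec4a1, Clec4a2, Clec4a3, Clec4a4, Clec4n and Cd209a), 1 was higher (Clec4e) and 3 were neither (Clec4d, Clec7a and Clec12a). Over the 11140 genes at the level minimum, 13.2% were lower and 1.52% higher, which is 7.36% and 0.848% of all 19935 genes. With the dimmer array raised to its olfactory limit, 5 lectins (all but Clec4a2 of the 6) were still lower and none was higher, beside 10.2% and 1.14% of the genes at the level minimum. The median log2 difference, IL-27 minus vehicle, was -1.45 over the 10 lectins, against 0.04 over all genes and -0.34 over genes at the level minimum. These medians were taken on deposited values, with no array raised to its olfactory limit. Differences between these arrays depend on level, so each lectin was also set beside the 1000 genes nearest to it in mean log2 level. With the median of those genes subtracted, the lectins' median was -1.13, and 8 of 10 lay below the median of their level neighbours.

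**Figure D1:**
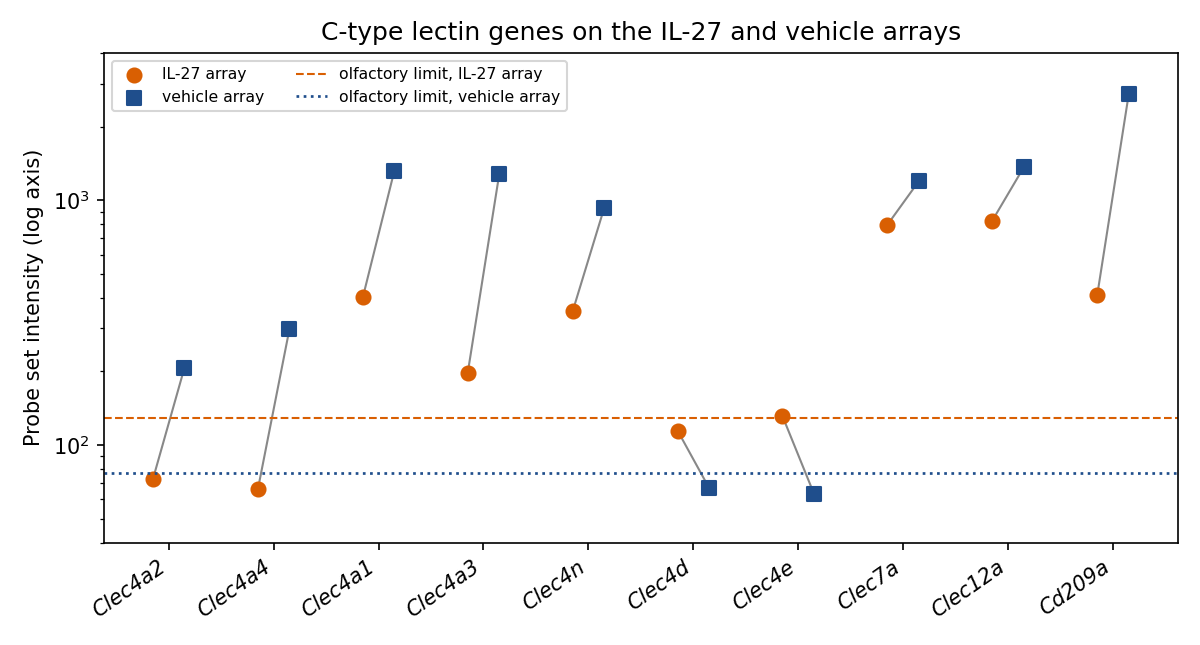
Probe set intensity (log axis) of the 10 lectin genes, with circles for the IL-27 array, squares for the vehicle array, and lines at each array's olfactory limit (129 and 77.3). On the IL-27 array 8 genes lie below their vehicle value, while Clec4d and Clec4e lie above theirs; each point is 1 array, and heights of different genes are not comparable because their probes differ.

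The inhibitory receptors of the DCIR group were both lower with IL-27. Clec4a2 (probe set 10541587), which encodes DCIR, had an intensity of 72.8 on the IL-27 array and 207 on the vehicle array. Clec4a4 (probe set 10541575), which encodes DCIR2, had 66.1 on the IL-27 array and 297 on the vehicle array. Both IL-27 values lay within the olfactory range, so only a bound holds for the fold: Clec4a2 was at least 1.60-fold lower and Clec4a4 at least 2.29-fold lower. The deposited differences were -1.51 for Clec4a2 and -2.17 for Clec4a4 on the log2 scale. An absolute difference as large as that of Clec4a2 was seen in 1.0% of its level neighbours, and one as large as that of Clec4a4 in none.

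Clec4a1 and Clec4a3, which encode DCIR4 and DCIR3, were lower too, and on both arrays they lay above the olfactory range. Clec4a1 (probe set 10541555) had an intensity of 402 on the IL-27 array and 1318 on the vehicle array, which is 3.28-fold lower (log2 difference -1.71). Clec4a3 (probe set 10541564) had 197 on the IL-27 array and 1277 on the vehicle array, which is 6.47-fold lower (log2 difference -2.69). Their level neighbours had median differences of -0.39 and -0.51, and 3.0% of them differed by as much as Clec4a1 and 0.10% by as much as Clec4a3. Within the 4 Clec4a genes the deposited differences ran from -1.51 to -2.69, with a median of -1.94. For Clec4a2 and Clec4a4 among them only the bounds above hold.

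The Clec4a genes are close relatives, and probes for one can bind transcripts of another. Each of the 10 lectins had 1 probe set, no probe set was assigned to a lectin together with another gene, and the annotation listed no accession under more than 1 of these probe sets. The probe sequences were not used here, so how far the 4 Clec4a values were independent readings was not tested. Clec4b1, which lies between Clec4a4 and Clec4a2, read 27.5 on the IL-27 array and 50.1 on the vehicle array, within the olfactory range on both.

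Of the activating receptors of the same cluster, Clec4n was lower, while Clec4d and Clec4e had positive differences within or near the olfactory range. Clec4n (probe set 10541605), which encodes Dectin-2, a receptor for fungal mannans, had an intensity of 352 on the IL-27 array and 929 on the vehicle array. This is 2.64-fold lower, a log2 difference of -1.40, and 7.2% of its level neighbours had an absolute difference at least that large. Once a lowess trend against level was taken off, the difference of Clec4n was -0.95, short of 2-fold. Clec4e (probe set 10547664), which encodes Mincle, a receptor for mycobacterial cord factor and for a self ligand of dying cells, had 131 on the IL-27 array and 63.3 on the vehicle array. The vehicle value was within the olfactory range and the IL-27 value just above its limit of 129. Against the vehicle array's limit of 77.3, the IL-27 value was 1.70-fold higher. The 2 limits differ from each other by nearly as much, so this fold is no firm bound for Clec4e. Its deposited log2 difference of 1.05 was 0.96 after median centring, 0.94 with the level trend removed and 0.89 with an offset of 16, all short of 2-fold. Clec4d (probe set 10541614), which encodes MCL, the partner of Mincle, had 115 on the IL-27 array and 66.9 on the vehicle array. Both were inside the olfactory range of their array, so no fold is given for Clec4d; the deposited log2 difference was 0.78. At the levels of Clec4d and Clec4e the level neighbours also had positive median differences, of 0.17 and 0.15, and the olfactory receptor genes themselves had a median intensity of 59.0 on the IL-27 array and 40.5 on the vehicle array. Differences in that direction at least as large as theirs were seen in 2.9% of the level neighbours of Clec4d and 1.3% of those of Clec4e.

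**Figure D2:**
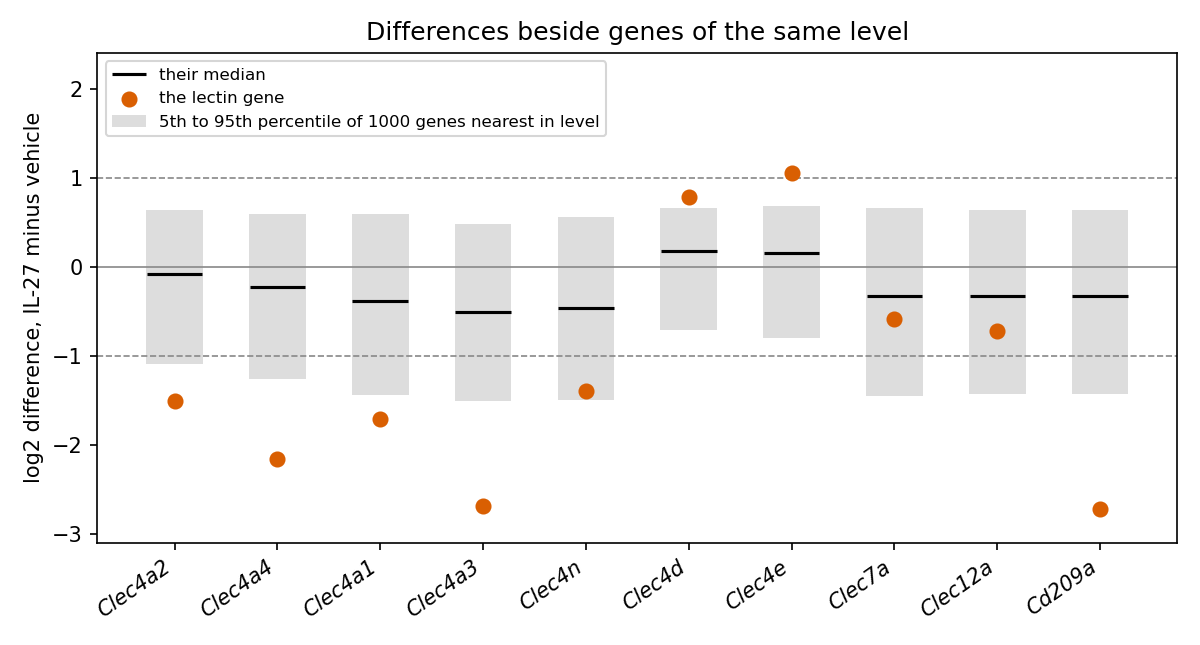
Log2 difference, IL-27 minus vehicle, of each lectin gene (circle), beside the 5th to 95th percentile (grey bar) and median (black line) of the 1000 genes nearest in level; dashed lines mark 2-fold. Clec4a1, Clec4a2, Clec4a3, Clec4a4 and Cd209a lie below their bars, Clec4d and Clec4e above theirs, and Clec4n, Clec7a and Clec12a inside.

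Clec7a and Clec12a of the Dectin-1 cluster differed by amounts common among genes of their level. Clec7a (probe set 10548375), which encodes Dectin-1, the receptor for fungal beta-glucan, had an intensity of 795 on the IL-27 array and 1199 on the vehicle array. The log2 difference was -0.59, against a median of -0.33 among its level neighbours, of which 37.1% had an absolute difference at least that large. Clec12a (probe set 10542164), which encodes MICL, an ITIM receptor that senses uric acid crystals, had 827 on the IL-27 array and 1366 on the vehicle array. Its log2 difference was -0.72, and 27.2% of its level neighbours had one at least that large. Both genes lay far above the olfactory range on both arrays.

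Cd209a (probe set 10576784), a mouse relative of human DC-SIGN, had the lowest difference of the 10 genes. Its intensity was 410 on the IL-27 array and 2710 on the vehicle array, which is 6.61-fold lower (log2 difference -2.72). Of its level neighbours 0.10% had an absolute difference that large, and their median was -0.33. The deposited differences of the 10 lectins thus spanned 3.78 on the log2 scale, from -2.72 for Cd209a to 1.05 for Clec4e. Grouped by signal from general knowledge, those of the 3 ITIM receptors ran from -2.17 to -0.72. Those of the 4 Syk-coupled receptors ran from -1.40 to 1.05. In these ranges Clec4a2, Clec4a4, Clec4d and Clec4e had a value within the olfactory range on at least 1 array. The other 3 lectins, Clec4a1, Clec4a3 and Cd209a, were placed in neither group and ran from -2.72 to -1.71.

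In gene order along the DCIR and Dectin-2 cluster, the lower genes lay side by side. The run from Clec4a1 to Clec4n, whose ends were set by these calls, holds 7 genes, of which 6 were lower. The exception was Clec4b1, which was under the level minimum. Counted from C3ar1 to Clec4e, the displayed cluster holds 11 genes, with 6 lower and 1 higher. Over all 19935 genes the shares were 7.36% and 0.848%. Clec4a2, one of the lower genes, was at least 1.60-fold lower against the olfactory limit. How far the 4 Clec4a values were independent readings was not tested. Clec4b2, the related gene in that run that is not among the 10, had an intensity of 117 on the IL-27 array, within the olfactory range, and 402 on the vehicle array, which is at least 3.10-fold lower. Clec4d and Clec4e follow Clec4n at one end, and Necap1, an endocytic adaptor gene next to Clec4a1 at the other end, had 152 on the IL-27 array and 231 on the vehicle array (log2 difference -0.60). In the Dectin-1 cluster, Clec1b, which encodes the podoplanin receptor CLEC-2, lies between Clec12a and Clec7a. It was at least 4.07-fold lower, with 78.2 on the IL-27 array and 527 on the vehicle array. Its neighbour Clec9a, the receptor of type 1 DCs for actin of dead cells, had 1200 on the IL-27 array and 1805 on the vehicle array (-0.59). The other Cd209 genes had intensities of at most 134.7 on either array, and Cd209d was at least 1.04-fold lower. The neighbouring genes were chosen for display after the values were seen.

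**Figure D3:**
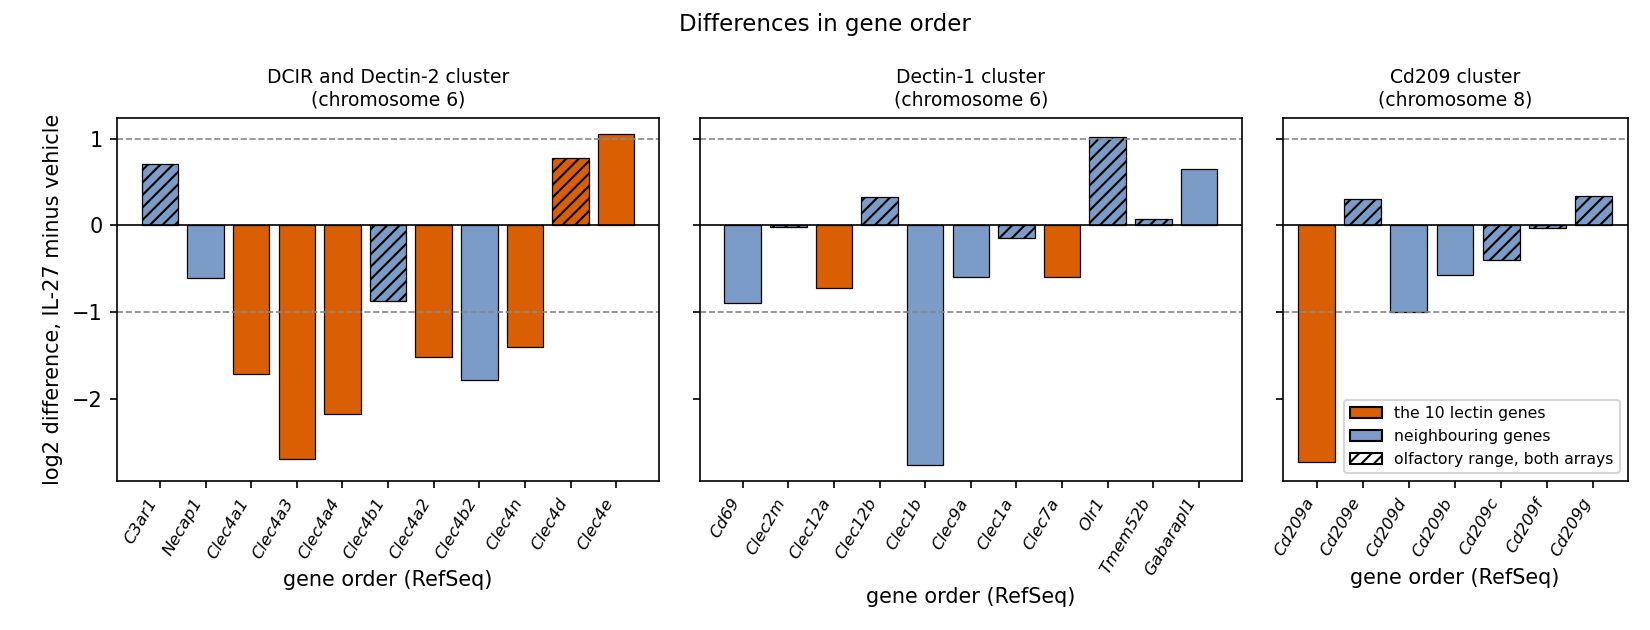
Log2 difference, IL-27 minus vehicle, of the genes of 3 lectin clusters in RefSeq order (GRCm38.p6, not to scale), with the 10 lectins in orange, other genes in blue, hatching where both arrays were within the olfactory range, and dashed lines at 2-fold. Lower genes run from Clec4a1 to Clec4n, with positive differences for Clec4d and Clec4e at the end, while Clec7a and Clec12a stay inside the 2-fold lines.

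Of 30 other C-type lectin receptors, 14 met the level minimum, of which 5 were lower and 1 higher. The shares over all genes at the level minimum were 13.2% lower and 1.52% higher. The list's median difference was -0.09, or -0.58 over the members at the level minimum. Clec1b, Cd302, Mrc1 and Clec4b2 had the largest differences. Mrc1, the mannose receptor, had 419 on the IL-27 array and 1819 on the vehicle array, which is 4.34-fold lower. Cd302, at 72.9 on the IL-27 array and 363 on the vehicle array, was at least 2.80-fold lower. The gene counted as higher, Olr1, which encodes the oxidised lipoprotein receptor LOX-1, was within the olfactory range with IL-27 and with vehicle, as were 16 of the 30 genes.

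The signalling genes that these receptors use were mostly within 2-fold. Of 14 measured adaptors and signalling genes, all at the level minimum, 1 was lower, none higher and 13 neither. Calls of lower made up 13.2% of all genes at that minimum, and calls of higher 1.52%. A count of 1 in 14 therefore does not set this list apart. Its median difference was -0.44, and that of all genes at the level minimum was -0.34. Fcer1g, the Fc receptor gamma chain that carries Dectin-2 and Mincle, had an intensity of 2214 on the IL-27 array and 4254 on the vehicle array (log2 difference -0.94). Card9, the adaptor downstream of Syk, had 143 on the IL-27 array and 278 on the vehicle array (-0.96). Syk itself had 702 on the IL-27 array and 1095 on the vehicle array (-0.64). The phosphatase genes of ITIM receptors, Ptpn6 for SHP-1 and Ptpn11 for SHP-2, differed by -0.71 and -0.30. Fgr, a Src family kinase gene, was the lower member, 2.49-fold, and Plcg2 differed by -0.82. With the level trend removed the list's median was -0.15 and none of its genes was lower by the size rule.

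Genes that Dectin and Mincle signals induce in myeloid cells were lower in part. Of 13 that met the level minimum, 4 were lower and none higher, beside 13.2% and 1.52% of all genes at that minimum. The median over all 18 was -0.49. Ptgs2, the prostaglandin-forming enzyme, was 3.66-fold lower, the early transcription factor Egr1 2.58-fold, Nfkbiz 2.18-fold and the neutrophil chemokine Cxcl2 2.08-fold. Of their level neighbours, 13.5% had an absolute difference as large as that of Nfkbiz and 19.8% one as large as that of Cxcl2. With the level trend removed 1 response gene was lower and 1 higher, with a median of -0.18, and with quantile normalization 2 were lower and 1 higher. Of 13 myeloid transcription factors, none passed the size rule, with a median of -0.28 that turned to 0.09 with the level trend removed. Spi1, which encodes PU.1, had 2481 on the IL-27 array and 2152 on the vehicle array, and Irf4, a factor of type 2 DCs, had 698 on the IL-27 array and 529 on the vehicle array. The largest differences in this list were those of Klf4, Zeb2, Tcf4 and Batf3, from -0.92 to -0.77.

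**Figure D4:**
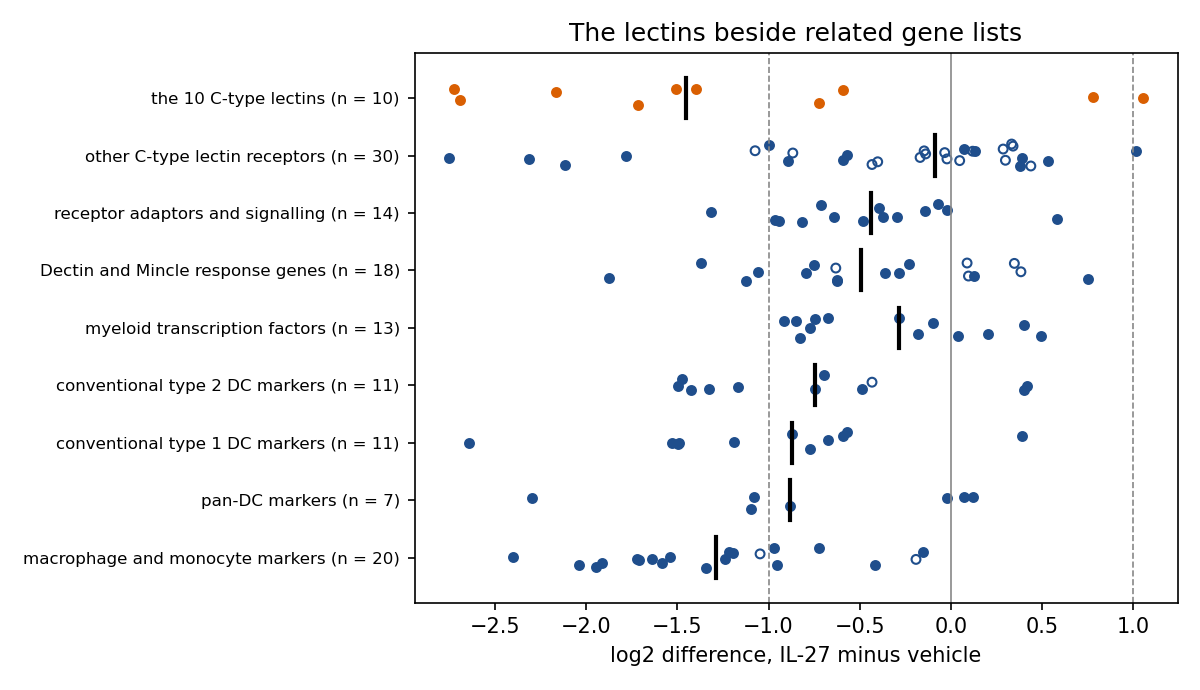
Log2 difference, IL-27 minus vehicle, of every measured gene of the 10 lectins and of 8 related lists; filled points met the level minimum, open points did not, black bars are list medians and dashed lines mark 2-fold. The lectins' median is -1.45, that of macrophage and monocyte markers -1.29 and that of adaptors and signalling genes -0.44.

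The sorted cells carried DC genes on both arrays, and beside the lectins 13 of 20 macrophage and monocyte markers and some of the DC markers were lower with IL-27. The share of lower calls over all genes at the level minimum was 13.2%. Itgax, which encodes CD11c, had 1829 on the IL-27 array and 3371 on the vehicle array (log2 difference -0.88), and Zbtb46, a defining factor of conventional DCs, had 340 on the IL-27 array and 344 on the vehicle array (-0.02). No macrophage or monocyte marker was higher, and the median of that list was -1.29. Their summed intensity was 20144 on the IL-27 array and 43069 on the vehicle array, and Ccr2 and Vsig4 were within the olfactory range on each array. Cd163, Slc40a1, Mertk and Fcgr4 had the largest differences, with Slc40a1, the iron exporter, 4.12-fold lower. Of 11 type 2 DC markers, 5 were lower and none higher (Cd4, Itgam, Sirpa, Dtx1 and Ltb), with a median of -0.75, while Irf4 and Il1r2 differed by 0.40 and 0.42. With the level trend removed 3 of them were lower. Their summed intensity was 6617 on the IL-27 array and 10614 on the vehicle array, and Mgl2 was within the olfactory range on both. Of 11 type 1 DC markers, 5 were lower and none higher (Tlr3, Cd8a, Xcr1, Naaa and Cadm1), with a median of -0.87, while Ly75 differed by 0.39. The 7 pan-DC markers held 3 lower genes (Kmo, Dpp4 and Flt3), with a median of -0.88, but 1 lower gene with quantile normalization or with the level trend removed. The class II genes H2-Aa and Cd74 differed by 0.12 and 0.07. In sorted but mixed cells, fewer cells of a type and less RNA per cell cannot be told apart, and the part of either in the lectin values was not tested. Of 6 plasmacytoid DC markers none was lower or higher. In the lists of other cells, Csf3r and Cxcr2 of the neutrophil markers were lower (log2 differences -1.75 and -1.08), as were Cd22 and Ms4a1 of the B cell markers (-1.68 and -1.11) and Klrk1 and Klrd1 of the NK cell markers (-1.09 and -1.04), and none was higher. Of these the 2 NK cell calls ended, and 1 B cell call was left, with quantile normalization or with the level trend removed. The neutrophil calls were 1 with the offset of 16 or the 75th percentile as level minimum. The vehicle value of Cxcr2, 117, lay below the IL-27 array's olfactory limit of 129, so no fold holds for that gene. The other 7 neutrophil markers had positive differences. Among them were S100a9 (0.78), above the olfactory range on both arrays, and Ly6g (0.98), within it on both. Medians over each list were -0.59 for plasmacytoid DCs, -0.39 for B cells, 0.30 for neutrophils (-1.08 over the 3 at the level minimum), and 0.05 for T cells and for NK cells, both of which turned negative with quantile normalization. Of the neutrophil, T cell and NK cell markers, 5 of 9, 3 of 6 and 3 of 7 stayed in the olfactory range with either treatment.

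The direction of every lectin was kept under 4 other scalings, which were an offset of 16, median centring, quantile normalization and subtraction of the level trend. An offset added to both arrays cannot change a sign, and median centring shifted every difference by only -0.098, so these 2 say little about direction. Of the 40 lectin values under the 4 scalings, 36 also stayed on the same side of 2-fold. The exceptions were the 3 of Clec4e and the 1 of Clec4n given above. The smallest differences of Clec4a3 and Cd209a under any of these were -2.22 and -2.38.

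**Figure D5:**
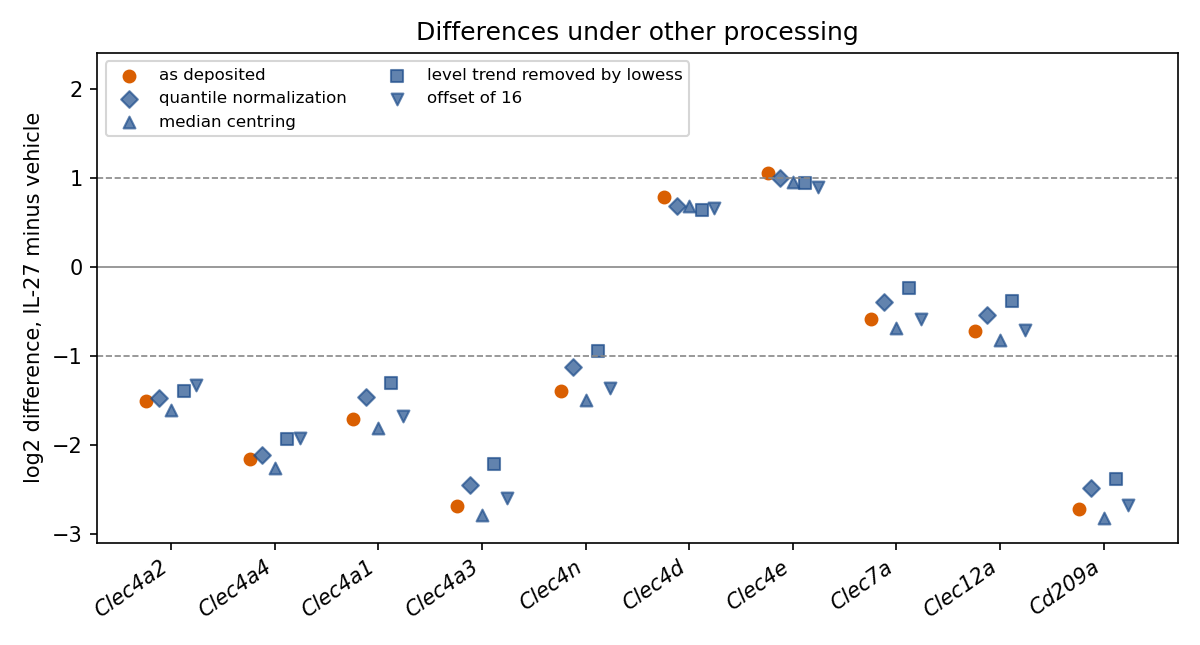
Log2 difference, IL-27 minus vehicle, of each lectin gene as deposited (circle) and after 4 other scalings (other symbols), with dashed lines at 2-fold. No gene changes sign; Clec4e (0.89 to 1.05) and Clec4n (-1.50 to -0.95) are those that cross a 2-fold line.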

How the data were processed

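Total RNA of 2 samples was labelled with biotin and hybridised to 1 Affymetrix array each, per the labels' protocols. The deposited table held 1 linear intensity per probe set and array for 28815 probe sets. The authors' background correction, summarization and normalization were not given in the sources used here. The arrays did not share 1 distribution (median 98.9 with IL-27 and 92.4 with vehicle). The submitters' processing notes name genome build mm8. Precision is limited by the number of arrays, 1 a group.

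Log2 was taken with no pseudocount, since all values were above 0. GEO's platform annotation gave 21780 probe sets 1 gene, 1605 several and 5430 none listed here; 21689 of the first matched a RefSeq gene ID. A gene was read by its probe set of highest mean log2. The size rule, the level neighbours and the olfactory limit were applied to all genes, and the size rule was tested on simulated data. Named genes were all 10 lectins, up to 4 genes per other list by absolute difference at the level minimum, and 11 genes whatever their values; others are examples chosen after their values were seen. The members and lists were chosen with earlier results of these data known. With 1 array a group no likeness of pattern was computed. Alternatives were other scalings, level minimums and a 1.5-fold rule. Python 3.11.15, pandas 2.3.3, statsmodels 0.14.6 (lowess, span 0.3) and Biopython 1.88 (local alignment) were used.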

Additional observations from a re-analysis of the deposited data

How the results depend on the processing

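With 1 array a group, there is no replicate spread to set beside these changes, so a difference was compared with 2-fold, a median with a shift of 0.58 on the log2 scale, and a count with 1.5 times. No paired analysis was possible because each group has 1 array. No probe set shared with another gene held a lectin, so that alternative gave no value, and the mean over probe sets is the value itself for the lectins. The count of lower lectins was 5 to 8 under all alternatives tried, and their median difference ran from -1.55 to -1.13. Clec4e was 0.955 with median centring, 0.94 with the level trend removed and 0.89 with the offset, and Clec4n -0.95 with the trend removed. The 1 higher lectin became 0 with median centring, the level trend removed, the offset, the 75th percentile as level minimum, or the dimmer array raised to the olfactory limit, and 2 with the 1.5-fold rule. Of the level neighbours, the 500 or 2000 nearest, chosen after seeing the data, gave medians of -1.15 and -1.10 for the lectins after subtraction.

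Over all genes the lower calls, 1468 as deposited, were 905 with quantile normalization, 594 with the level trend removed and 3753 with the 1.5-fold rule, and the higher calls, 169 as deposited, were 341 with the trend removed, 101 with the 75th percentile and 653 with the 1.5-fold rule. Among other lectin receptors the 1 higher call became 0 with quantile normalization, median centring, the trend removed, the offset or the 75th percentile. Lower adaptors and signalling genes were 3 with median centring, 0 with the trend removed and 6 with the 1.5-fold rule. Lower response genes were 2 with quantile normalization, 1 with the trend removed and 8 with the 1.5-fold rule, and higher ones 1 under each of these. Lower transcription factors were 1 with median centring and 6 with the 1.5-fold rule, and their median turned to 0.094 with the trend removed. The T cell median turned to -0.074 with quantile normalization and -0.044 with median centring, and the NK cell median to -0.12 with quantile normalization, -0.049 with median centring and -0.12 with the trend removed.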
